A study of Mus musculus with 6 samples.

Results

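Insulin and the insulin-like growth factors act through a small set of genes, and 10 of them were examined here in astrocytes sorted from the brains of mice with and without streptozotocin (STZ), which destroys pancreatic beta cells and with them the supply of insulin. The set held the growth factors Igf1 and Igf2, the receptors Insr, Igf1r and Igf2r, the adaptors Irs1 and Irs2, the PI3K regulatory subunit gene Pik3r1 and the transcription factors Foxo1 and Foxo3. The members were taken by gene symbol from the 45777 genes of the deposited table, and all 10 were found. The comparison asked whether receptors, relay and FoxO targets differ in astrocytes after STZ, where a loss of circulating insulin is assumed and no measurement of it is given.

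All animals in both groups were male Aldh1l1 cre/ERT2; tdTomato fl/fl mice on a C57BL/6 background, in which tamoxifen switches on tdTomato in cells that use the Aldh1l1 promoter, so cells were labelled by the activity of that promoter. At 8 weeks of age STZ-treated mice received 1 injection of 150 mg/kg STZ in citrate buffer and vehicle-treated mice received the buffer alone, and brains were taken 21 days later. STZ mice were kept only if their fasting glucose was high. Each sample was a pool of tdTomato-positive cells from 3 brains, with 3 samples per group and 6 in all. The labels give the genotype of every sample as WT and no value of insulin, glucose or body weight for any sample, so hyperglycemia and loss of insulin cannot be told apart.

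Insulin binds Insr, and the growth factors bind mainly Igf1r, both of them receptor tyrosine kinases. The active receptor phosphorylates IRS adaptors, which recruit PI3K and switch on the kinase AKT. AKT phosphorylates FoxO factors and holds them out of the nucleus, so that FoxO target genes are usually low while insulin acts and rise when it is withdrawn. Several FoxO targets, Insr and Irs2 among them, are themselves part of the pathway. Igf2r is not a signalling kinase and clears Igf2 by carrying it to the lysosome. In the brain Igf2 is known as a product of choroid plexus, meninges and vessel walls, and Igf1 as a product of some neurons and of microglia and macrophages.

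Total counts were between 52529048 and 58749115 per sample. Values below are normalized CPM, which are counts scaled to library size by TMM, unless FPKM (reads scaled by transcript length and by depth) is named. Differences are log2 fold changes of STZ over vehicle with their standard error (SE) from edgeR's quasi-likelihood test across 22337 genes. A gene was called at an adjusted p under 0.05 with a fold change over 1.5. The defining astrocyte markers were abundant in all samples. Their summed CPM over 10 markers was 22863 to 26456 in vehicle-treated samples and 22730 to 24614 in STZ-treated samples. At an unadjusted edgeR p under 0.05, 2 of the 10 were lower in STZ (Aqp4 and Aldh1l1, where 5.65% of all genes were). In the other direction 1 was higher (Gjb6, where 5.63% were). Markers of other cells were also present and varied between samples. The sum of 13 endothelial markers was 73.9 to 239 with vehicle and 237 to 426 with STZ (exact permutation test, p = 0.2), and 11 of the 13 had an unadjusted edgeR p under 0.05, all higher in STZ. The sum of 9 choroid plexus and ependymal markers was 5979 to 17594 with vehicle and 9095 to 15611 with STZ, most of it Ttr. Of 12 mural and fibroblast markers 4 were higher in STZ at an unadjusted edgeR p under 0.05 (Tagln, Acta2, Myh11 and Rgs5), and all 4 were called by DESeq2. The sum of the 12 was 157 to 192 with vehicle and 189 to 247 with STZ. Over all genes 5.63% were higher at that p, and DESeq2 called 1.05%. The sum of 8 oligodendrocyte markers was 2200 in vehicle replicate 1 and 2931 in STZ replicate 1, against 714 to 935 in the other samples. Since these are bulk samples, fewer cells of a type and less RNA per cell cannot be told apart.

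Of the 10 members, edgeR called 0, against 0.0224% of all genes tested. DESeq2, the tool of the study, called 1 member, Igf1, against 1.05% of all genes. At an unadjusted edgeR p under 0.05, 3 members were higher in STZ (Foxo1, Insr and Foxo3, where 5.63% of all genes were) and 1 was lower (Igf1, where 5.65% were). The same 4 genes were the members whose groups did not overlap, against 8.64% of all genes for higher and 9.85% for lower values. The median log2 fold change of the 10 members was 0.08 and that of all genes was 0.01.

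Per length of transcript, Foxo1 was the most abundant member, with 26.6 FPKM ± 3.74 (SD, n = 6). Pik3r1 followed with 12.3 ± 0.589 FPKM and then Irs2 with 9.25 ± 1.26 FPKM. Igf2 had 8.92 ± 4.01 FPKM and Insr 6.49 ± 0.844 FPKM, and the ranges of Irs2, Igf2 and Insr overlapped from each to the next. Igf1r (2.28 FPKM), Foxo3 (1.65 FPKM), Igf2r (1.43 FPKM) and Irs1 (1.31 FPKM) came next, again with ranges that overlapped between neighbours in the order. Igf1 was the least abundant member, with 0.298 ± 0.133 FPKM (SD, n = 6). Insr therefore stood above Igf1r in every sample, with ratios of FPKM between 2.21 and 3.45, and Foxo1 stood 13.3 to 18.4 times above Foxo3. The ratio of Insr to Igf1r did not separate the groups, with a mean of 2.85 ± 0.246 for vehicle and 2.94 ± 0.652 for STZ (SD, n = 3 per group, exact permutation test, p = 0.9).

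**Figure D1:**
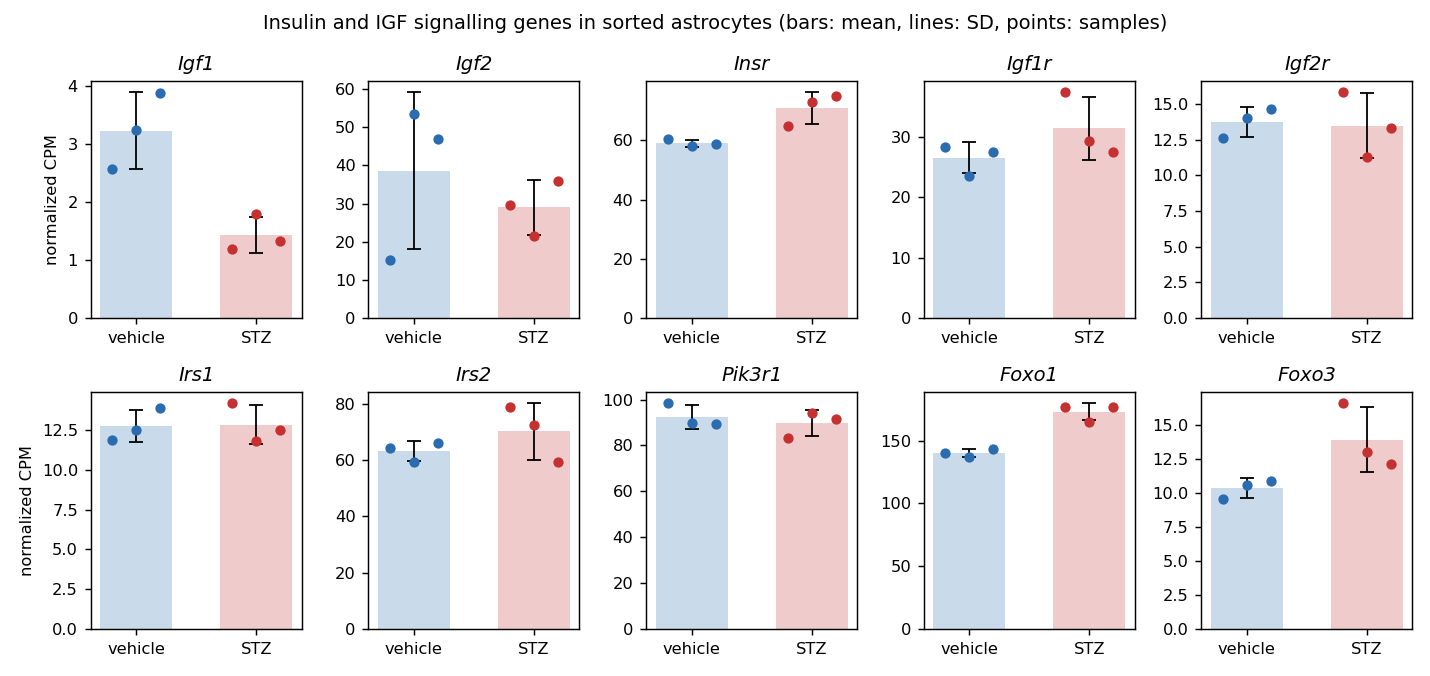
Normalized CPM (vertical axes, starting at 0) of the 10 members in vehicle (blue) and STZ (red) samples, with bars for the mean, lines for the SD (n = 3 per group) and points for the samples. All STZ samples lie below all vehicle samples for Igf1 and above them for Insr, Foxo1 and Foxo3, and the groups overlap in the other 6 panels.

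Igf1, the ligand of Igf1r, showed the widest gap between the groups. Igf1 (NCBI gene 16000, chromosome 10, 87858265 to 87937047 of GRCm38) had 2.57, 3.24 and 3.89 CPM in vehicle replicates 1 to 3 and 1.19, 1.79 and 1.33 CPM in STZ replicates 1 to 3. Its highest STZ sample lay below its lowest vehicle sample, on raw counts of 138 to 223 with vehicle and 72 to 104 with STZ. The log2 fold change was -1.17 (SE 0.265, edgeR adjusted p = 0.253, DESeq2 adjusted p = 0.00645), and it stayed between -1.36 and -1.03 with each sample left out. Of 13 microglia and border macrophage markers, 11 had a negative log2 fold change, where 51.9% of all genes had a positive one. At an unadjusted edgeR p under 0.05, 3 of the 13 were lower in STZ (5.65% of all genes were) and none was higher. Those 3 were Mrc1, Cd163 and Lyve1, which mark border macrophages, with log2 fold changes of -0.82 (SE 0.242), -0.87 (SE 0.299) and -0.92 (SE 0.378). Mrc1 had 16.8, 9.85 and 13.1 CPM with vehicle and 8.31, 8.61 and 5.65 CPM with STZ. The microglial markers P2ry12 and Csf1r overlapped between the groups, the sum of all 13 markers was 667 to 992 CPM with vehicle and 647 to 902 CPM with STZ, and none of the markers was at 0. The part of macrophages in the Igf1 difference was not tested. The ratio of Igf1 to Mrc1 was 0.153, 0.329 and 0.296 with vehicle and 0.143, 0.208 and 0.235 with STZ, and the groups overlapped in it. The ratio of Igf1 to Csf1r was 0.0140, 0.0290 and 0.0282 with vehicle and 0.00940, 0.0103 and 0.0123 with STZ, and the groups did not overlap in it (exact permutation test, p = 0.1, the smallest that 3 against 3 samples allow).

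Igf2, the fetal growth factor that stays on in choroid plexus and meninges, varied most within a group. Igf2 (NCBI gene 16002, chromosome 7, 142650768 to 142666816) had 15.1, 53.5 and 47.0 CPM with vehicle and 29.6, 21.5 and 35.9 CPM with STZ. Vehicle replicate 1 was the lowest of all 6 samples and the other two vehicle samples were the highest, so the groups overlapped. The log2 fold change was -0.41 (SE 0.423, edgeR adjusted p = 0.745), and it ran from -0.11 without vehicle replicate 2 to -0.80 without vehicle replicate 1, where the edgeR adjusted p was 0.33. Ttr, the transthyretin gene that is a choroid plexus marker, had 5487, 15446 and 16529 CPM with vehicle and 10401, 8571 and 14740 CPM with STZ. Igf2 differed 3.55 times and Ttr 3.01 times between the lowest and the highest sample, while Igf2 per 1000 Ttr differed 1.42 times, from 2.43 to 3.46. That ratio had a mean of 3.02 ± 0.391 with vehicle and 2.60 ± 0.217 with STZ (SD, n = 3 per group, exact permutation test, p = 0.3). The ratio of Igf2 to Kl, another choroid plexus marker, ran the other way, with 0.111, 0.186 and 0.188 with vehicle and 0.215, 0.228 and 0.197 with STZ. It differed 2.05 times over the samples, and its groups did not overlap (exact permutation test, p = 0.1). With a choroid plexus score as a covariate in edgeR, the log2 fold change of Igf2 was -0.08.

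Of the insulin genes, Ins2 was detected in every sample and Ins1 in none. Ins1 had no count in any sample, which allows up to 0.0511 to 0.0571 CPM (3 counts, counting error only). Ins2 (chromosome 7, 142678656 to 142679726, a neighbour of Igf2 that does not overlap it) had 1.10, 3.49 and 2.85 CPM with vehicle and 1.91, 1.60 and 2.88 CPM with STZ. Its groups overlapped, with a log2 fold change of -0.22 (SE 0.435). In CPM, which is not scaled by transcript length, Ins2 was between 0.0606 and 0.0802 of Igf2 in every sample. Per length of transcript the 2 genes were closer, with means of 3.98 FPKM for Ins2 and 8.92 FPKM for Igf2 over all samples. Ins1 and Ins2 are close copies, and reads could be assigned to either.

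Insr, the insulin receptor, lay higher in all STZ samples. Insr (NCBI gene 16337, chromosome 8, 3150922 to 3279649) had 60.3, 58.0 and 58.7 CPM with vehicle and 64.9, 72.9 and 74.8 CPM with STZ. The vehicle samples lay within a narrow band and the STZ samples were above it by a fold of 1.20, a log2 fold change of 0.26 (SE 0.0750, edgeR adjusted p = 0.306, DESeq2 adjusted p = 0.247). With each sample left out it was between 0.22 and 0.32. Igf1r (chromosome 7, 67952257 to 68233668), which carries the signal of Igf1, had 28.4, 23.6 and 27.6 CPM with vehicle and 37.4, 29.3 and 27.6 CPM with STZ. STZ replicate 1 was the highest and STZ replicate 3 equalled a vehicle sample. The log2 fold change was 0.24 (SE 0.135, edgeR adjusted p = 0.532), and 0.10 without STZ replicate 1. Igf2r (chromosome 17, 12682406 to 12769706) had 12.6, 14.0 and 14.6 CPM with vehicle and 15.8, 11.3 and 13.3 CPM with STZ, so that the STZ samples held both the highest and the lowest value. Its log2 fold change was -0.03 (SE 0.150), and 0.08 without STZ replicate 2. Igf2r overlaps the noncoding Airn, which had at most 0.911 CPM.

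The IRS adaptors, which dock PI3K to the active receptors, did not separate the groups. Irs1 (chromosome 1, 82233105 to 82291439) had 11.9, 12.5 and 13.9 CPM with vehicle and 14.2, 11.8 and 12.5 CPM with STZ, a log2 fold change of 0.01 (SE 0.127). Irs2 (chromosome 8, 10984681 to 11008929), the more abundant adaptor and a FoxO target, had 64.3, 59.2 and 66.0 CPM with vehicle and 78.9, 72.7 and 59.2 CPM with STZ. STZ replicates 1 and 2 were its highest samples, and STZ replicate 3 was level with the lowest vehicle sample. The log2 fold change of Irs2 was 0.15 (SE 0.112, edgeR adjusted p = 0.628). It was 0.26 without STZ replicate 3, 0.06 without STZ replicate 1 and -0.02 with an endothelial score as a covariate. The same STZ samples, replicates 1 and 2, were the highest for a list of 11 immediate-early and dissociation genes, whose summed CPM was 788 and 766 against 463 to 607 with vehicle and 551 in STZ replicate 3. Their part in the Irs2 values was not tested. Pik3r1 (chromosome 13, 101680761 to 101768217), the regulatory subunit that holds PI3K to the adaptors, had 98.5, 89.8 and 89.3 CPM with vehicle and 83.2, 94.0 and 91.6 CPM with STZ, a log2 fold change of -0.05 (SE 0.0771).

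Foxo1 gave the smallest p among the members, rank 168 of the 22337 genes. Foxo1 (NCBI gene 56458, chromosome 3, 52268337 to 52350109) had 140, 137 and 143 CPM with vehicle and 177, 165 and 177 CPM with STZ. The spread within each group was small beside the gap between them, with an SD of 2.71 for vehicle and 6.63 for STZ around means of 140 and 173 (n = 3 per group). The log2 fold change was 0.31 (SE 0.0644, edgeR adjusted p = 0.224), and between 0.28 and 0.34 with each sample left out. DESeq2 gave an adjusted p of 0.0459 for Foxo1, with a fold of 1.24 that is under the fold of 1.5 required for a call. Foxo3 (NCBI gene 56484, chromosome 10, 42181845 to 42276695) had 9.53, 10.6 and 10.9 CPM with vehicle and 16.6, 13.0 and 12.1 CPM with STZ. Its groups did not overlap, but STZ replicate 1 stood above the rest, and the log2 fold change of 0.43 (SE 0.152, edgeR adjusted p = 0.383) was 0.28 without it. Foxo3 also overlaps the noncoding Gm38485, and adding the reads of that gene took its log2 ratio of means from 0.43 to 0.29.

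Other gene lists also differed between these samples. The endothelial markers were higher in STZ in the mean. Vehicle replicate 3 and STZ replicate 3 had nearly equal sums, 239 and 237 CPM. In those single samples, a contrast without replicates, Foxo1 was 143 and 177 CPM and Insr 58.7 and 74.8 CPM. Foxo3 was 10.9 and 12.1 CPM there, and Igf1 3.89 and 1.33 CPM. The part of endothelial cells in the member values was not tested. An endothelial score was added to edgeR as a covariate after the data were seen. The log2 fold change was then 0.28 for Foxo1, 0.34 for Insr, -1.51 for Igf1 and 0.18 for Foxo3. The unadjusted edgeR p-values were 0.0462, 0.0316, 0.00521 and 0.477 in that order, and 0 members were called in that fit. Since the markers of the score were themselves higher in STZ, score and group are partly confounded. The other set was a list of 12 glucocorticoid-induced genes, all with a positive log2 fold change (51.9% of all genes had one). At an unadjusted edgeR p under 0.05, 7 were higher (5.63% of all genes were). The sum of the 12 was 1120 to 1396 CPM with vehicle and 1531 to 1662 CPM with STZ. Fkbp5, a co-chaperone of the glucocorticoid receptor, had 4.25, 4.47 and 6.37 CPM with vehicle and 26.1, 19.7 and 10.8 CPM with STZ. The part of glucocorticoids in the member values was not tested.

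**Figure D2:**
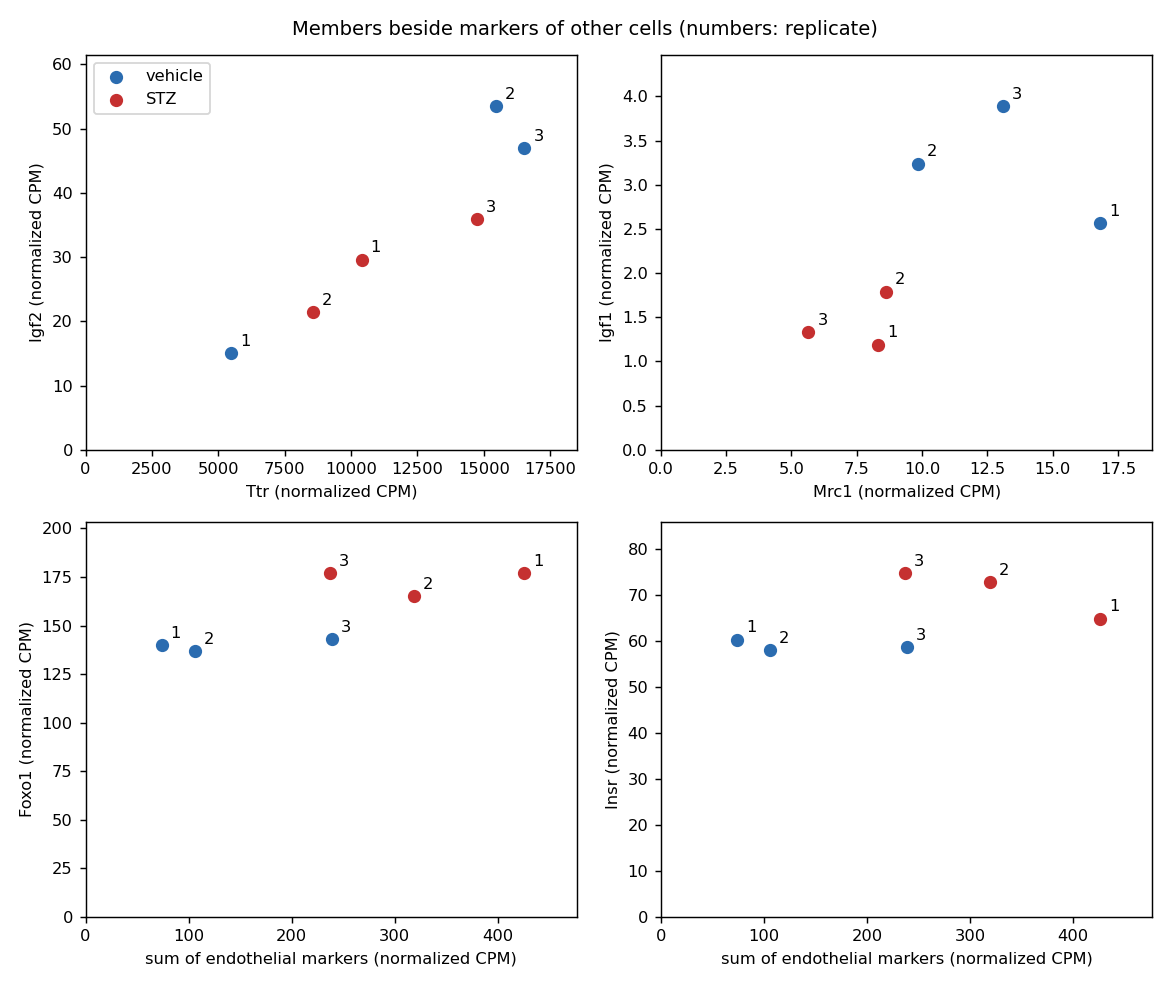
Igf2 against Ttr, Igf1 against Mrc1, and Foxo1 and Insr against the sum of 13 endothelial markers, all in normalized CPM on linear axes from 0, for vehicle (blue) and STZ (red) samples with the replicate number beside each point. Igf2 and Ttr line up across all 6 samples. Vehicle replicate 3 and STZ replicate 3, single samples with endothelial sums of 239 and 237, differ in Foxo1 and Insr.

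The question put to these samples was whether genes that FoxO factors raise or lower had shifted. Of 33 FoxO-induced genes, 28 could be tested, and Trim63, Fasl, Igfbp1, Pck1 and G6pc had a count of 0 in at least 1 sample. Among the 28, 21 had a positive log2 fold change (51.9% of all genes did), with a median of 0.11. At an unadjusted edgeR p under 0.05, 6 were higher in STZ (Cdkn1a, Insr, Cited2, Eif4ebp1, Sesn1 and Selenop), 1 was lower (Atg12) and 21 did not pass, and edgeR called 0. Over all genes 5.63% were higher and 5.65% lower at that p. Insr and Irs2 are also counted among the members, and Eif4ebp1 and Rictor among the relay genes. Groups did not overlap for 9 higher and 2 lower genes, beside the shares of 8.64% and 9.85% among all genes. With the endothelial score as a covariate, or without STZ replicate 2, 2 in place of 6 were higher at that p, and 0 to 3 were lower without single samples.

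Cdkn1a, which encodes the cell cycle inhibitor p21, had the largest log2 fold change of the FoxO-induced genes. It had 22.2, 26.1 and 35.5 CPM with vehicle and 64.0, 52.6 and 39.9 CPM with STZ, a log2 fold change of 0.90 (SE 0.215, edgeR adjusted p = 0.272, DESeq2 adjusted p = 0.00271). The lowest STZ sample and the highest vehicle sample were both replicate 3, and their endothelial sums were nearly equal. With the endothelial score the log2 fold change was 0.25, and the part of endothelial cells was not tested. Sesn1, a stress protein that restrains mTOR, had 127, 123 and 132 CPM with vehicle and 155, 150 and 136 CPM with STZ, a log2 fold change of 0.21 (SE 0.0748). Selenop, the secreted selenium carrier, was the most abundant gene of the list and had 1356, 1170 and 1270 CPM with vehicle and 1559, 1553 and 1396 CPM with STZ. Cited2, a transcriptional coregulator, had a log2 fold change of 0.38 (SE 0.128), and Eif4ebp1, which brakes translation initiation, one of 0.52 (SE 0.173). The edgeR adjusted p-values of Sesn1, Selenop, Cited2 and Eif4ebp1 were between 0.356 and 0.411.

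Other FoxO-induced genes had log2 fold changes of either sign. Pdk4, the kinase that shuts off pyruvate dehydrogenase and a widely used FoxO readout, had 69.9, 70.8 and 64.6 CPM with vehicle and 52.1, 61.8 and 63.9 CPM with STZ. Every STZ sample was below every vehicle sample, with a log2 fold change of -0.21 (SE 0.0929, edgeR adjusted p = 0.462). The autophagy gene Atg12 had 63.1, 64.4 and 64.8 CPM with vehicle and 56.1, 55.9 and 57.4 CPM with STZ, a log2 fold change of -0.18 (SE 0.0599). Map1lc3b and Gabarapl1, which encode proteins of the autophagosome membrane, had log2 fold changes of 0.07 (SE 0.0673) and -0.06 (SE 0.0669). The antioxidant genes Cat and Sod2 had 0.04 (SE 0.0800) and -0.12 (SE 0.112). Fbxo32, a ubiquitin ligase of muscle wasting, had -0.08 (SE 0.160). None of the 5 genes from Map1lc3b to Fbxo32 had an unadjusted edgeR p under 0.05.

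FoxO-repressed genes did not lie lower in STZ. Of 10 such genes 9 were tested, 6 had a positive log2 fold change, the median was 0.18, 2 were higher at an unadjusted edgeR p under 0.05 and 0 were lower. Over all genes 51.9% were positive, and at that p 5.63% were higher and 5.65% lower. Nos3, the nitric oxide synthase of endothelial cells, had 4.14, 5.78 and 9.27 CPM with vehicle and 18.9, 11.1 and 13.3 CPM with STZ, a log2 fold change of 1.18 (SE 0.320, edgeR adjusted p = 0.301, DESeq2 adjusted p = 0.00558). Id1, a helix-loop-helix inhibitor of differentiation, had 40.2, 55.0 and 60.5 CPM with vehicle and 86.9, 76.9 and 71.6 CPM with STZ, a log2 fold change of 0.60 (SE 0.153, edgeR adjusted p = 0.288, DESeq2 adjusted p = 0.0211). Within the vehicle group both had the order of the endothelial sums, and within the STZ group Id1 had it and Nos3 did not. With the endothelial score their log2 fold changes were 0.36 and 0.19. The cyclin genes Ccnd1 and Ccnd2, which FoxO factors switch off in dividing cells, had log2 fold changes of 0.22 (SE 0.195) and 0.17 (SE 0.188), the latter -0.02 without vehicle replicate 1. EdgeR called 0 genes of this list too, and DESeq2 called 2, Nos3 and Id1.

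**Figure D3:**
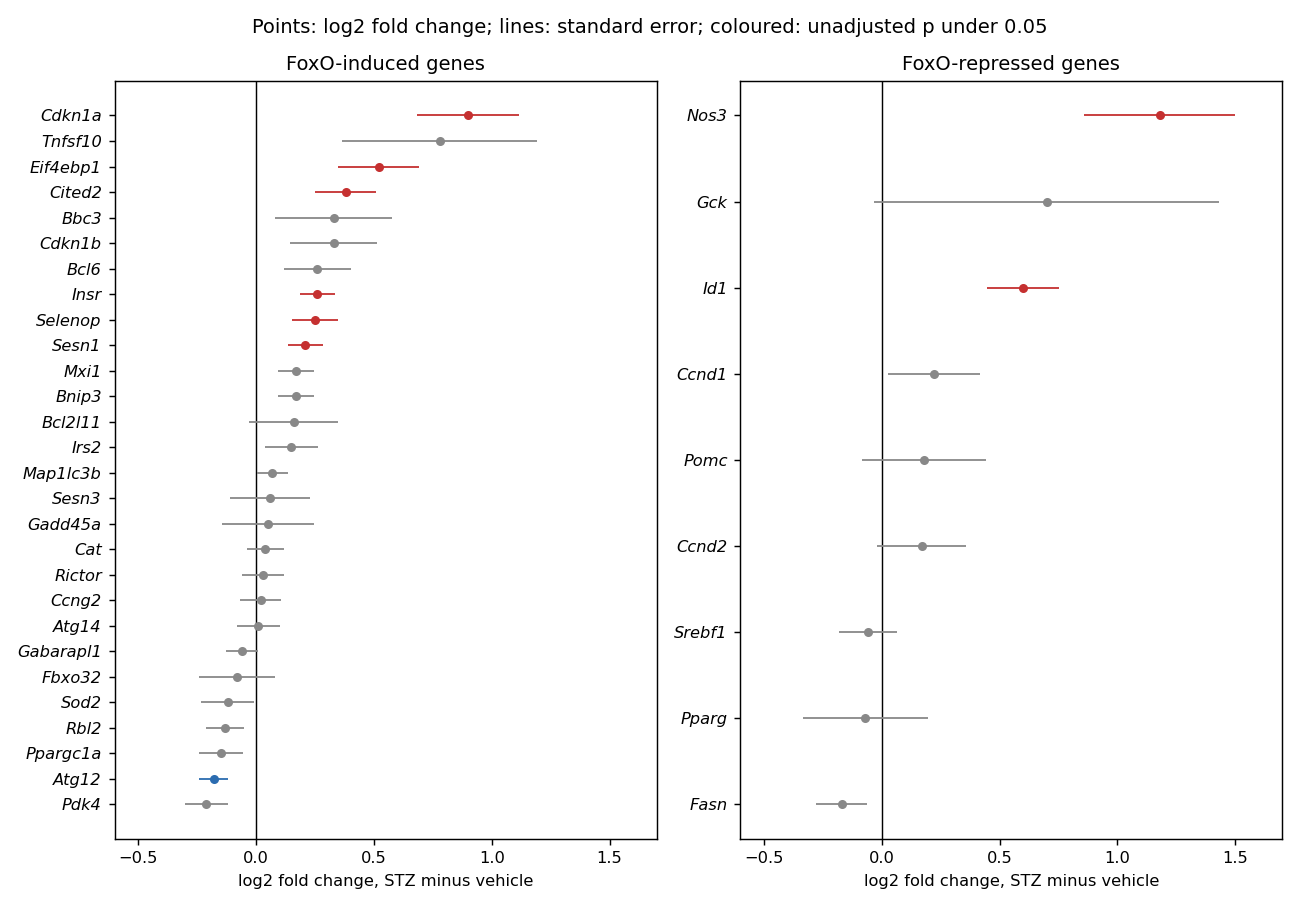
Log2 fold change of STZ over vehicle (horizontal axes) with its standard error for 28 FoxO-induced genes (left) and 9 FoxO-repressed genes (right), coloured where the unadjusted p was under 0.05. Points lie on both sides of 0 on the left, from -0.21 for Pdk4 to 0.90 for Cdkn1a, and the coloured genes on the right, Nos3 and Id1, lie above 0.

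FoxO factors bind DNA at a short core, and promoter windows of RefSeq (GRCm38.p6, 250 bases before to 50 after each start) were searched for GTAAACA on both strands. It was present in 3.65% of all 32851 windows, and in 4.05% of all genes with a window. Of the 29 FoxO-induced genes with a window 6 held it (20.7%), namely Bbc3, Bcl2l11, Mxi1, Selenop, Sesn1 and Trim63. None of the 13 windows of 9 members held it, nor its shorter form GTAAAC, which 7.89% of all windows held. Insr had no window. None of the 5 FoxO-repressed genes with a window held either form. A gene can have several starts, and distances are from the start on which a window was built. The stretches shown for Selenop, Mxi1 and Bbc3 lie inside their genes, which begin at 3270767, 53310128 and 16308398. Selenop and Mxi1, whose STZ samples all lay above the vehicle samples, are shown beside the cell death genes Bcl2l11 and Bbc3, whose groups overlapped. The core is in capitals, and each match is read 5′ to 3′ on the plus strand of GRCm38.p6.

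Selenop (chr15:3270926-3270986, core 24 bases upstream of the start): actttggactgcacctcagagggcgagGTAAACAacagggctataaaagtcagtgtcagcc
Mxi1 (chr19:53329445-53329497, core 231 bases upstream): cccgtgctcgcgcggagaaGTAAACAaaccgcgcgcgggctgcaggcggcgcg
Bcl2l11 (chr2:128125788-128125844, core 227 bases upstream): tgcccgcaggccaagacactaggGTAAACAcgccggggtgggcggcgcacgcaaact
Bbc3 (chr7:16310067-16310127, core in reverse, 167 bases upstream): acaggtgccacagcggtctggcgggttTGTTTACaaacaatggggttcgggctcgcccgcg

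Mxi1, an antagonist of Myc, had 136, 134 and 131 CPM with vehicle and 140, 149 and 162 CPM with STZ, a log2 fold change of 0.17 (SE 0.0751, edgeR adjusted p = 0.452). Bcl2l11 had 0.16 (SE 0.189) and Bbc3 0.33 (SE 0.248). The genes that carry the core thus included some whose groups separated and some whose groups did not, and Cdkn1a and Cited2, with larger log2 fold changes, had no match in their windows. A match describes the letters of the window only.

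Between receptor and FoxO lies the relay of PI3K, AKT and mTOR. Of 28 relay genes 26 were tested, since Insrr and Irs4 had a count of 0 in at least 1 sample. The median log2 fold change was -0.08, and 17 of 26 were negative, where 51.9% of all genes were positive. At an unadjusted edgeR p under 0.05, 3 were lower (5.65% of all genes were) and 22 did not pass. The 1 higher gene (5.63% of all genes were) was Eif4ebp1, which is also on the FoxO-induced list. Lower genes were 5 without STZ replicate 1 and 1 with the endothelial score. Akt2, the AKT isoform most tied to insulin and glucose uptake, had 277, 292 and 285 CPM with vehicle and 203, 228 and 230 CPM with STZ. Its groups were well apart, with a log2 fold change of -0.37 (SE 0.0757, edgeR adjusted p = 0.214, DESeq2 adjusted p = 0.0173), and -0.34 with the endothelial score. The processed copy Akt2-ps is counted as a gene of its own, at 7.21 to 10.2 CPM, so reads could be shared between them. Akt1, which encodes another AKT kinase, had a log2 fold change of -0.00 (SE 0.0825) and overlapped between the groups.

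Pik3r2, the sister of Pik3r1, had 60.8, 73.0 and 63.9 CPM with vehicle and 57.0, 50.8 and 55.6 CPM with STZ, a log2 fold change of -0.27 (SE 0.0900, edgeR adjusted p = 0.349). Tsc2, which restrains mTOR downstream of AKT and so acts against the relay, had 50.8, 50.6 and 46.1 CPM with vehicle and 42.1, 37.3 and 39.6 CPM with STZ, a log2 fold change of -0.31 (SE 0.0790, edgeR adjusted p = 0.288). The catalytic subunit gene Pik3ca had -0.08 (SE 0.0702). Mtor, Rictor and Grb2 had log2 fold changes between 0.00 and 0.03, and Rheb, the activator of mTOR, had 0.10 (SE 0.0836).

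A list of 13 genes taken as inhibitors of insulin signalling, all tested, had a median log2 fold change of -0.05. At an unadjusted edgeR p under 0.05, 2 were higher (5.63% of all genes were) and 0 were lower (5.65% were). Ptpn1, the phosphatase that removes phosphate from the insulin receptor, had 58.3, 63.6 and 66.7 CPM with vehicle and 73.8, 84.4 and 72.8 CPM with STZ, a log2 fold change of 0.29 (SE 0.0872, edgeR adjusted p = 0.322). Sh2b2, an adaptor that binds the insulin receptor, had 5.80, 6.15 and 7.12 CPM with vehicle and 11.5, 9.90 and 9.36 CPM with STZ, a log2 fold change of 0.69 (SE 0.157, edgeR adjusted p = 0.257, DESeq2 adjusted p = 0.00618). With the endothelial score the log2 fold changes were 0.16 for Ptpn1 and 0.40 for Sh2b2, and neither had an unadjusted p under 0.05. Socs3, a feedback inhibitor of cytokine and insulin receptors, had 18.9 and 14.1 CPM in STZ replicates 1 and 2 and 6.03 CPM in replicate 3, against 7.38 to 9.23 CPM with vehicle.

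Insulin also raises fatty acid synthesis, mainly through the transcription factor encoded by Srebf1. Of 10 lipogenic genes, all tested, 9 had a negative log2 fold change, where 51.9% of all genes had a positive one, and the median was -0.17. At an unadjusted edgeR p under 0.05, 4 were lower (Scd1, Acly, Scd2 and Elovl6) and 0 were higher, against 5.65% and 5.63% of all genes. Scd1, a desaturase that makes oleate, had 121, 99.0 and 98.0 CPM with vehicle and 68.6, 69.8 and 68.0 CPM with STZ, a log2 fold change of -0.62 (SE 0.0929, edgeR adjusted p = 0.157, DESeq2 adjusted p = 0.000125). Acly, which supplies cytosolic acetyl-CoA, had 164, 151 and 144 CPM with vehicle and 113, 121 and 109 CPM with STZ, a log2 fold change of -0.42 (SE 0.0769, edgeR adjusted p = 0.189). Srebf1 itself had 662, 549 and 592 CPM with vehicle and 675, 535 and 525 CPM with STZ, which overlapped, with a log2 fold change of -0.06 (SE 0.123). Fasn, the fatty acid synthase, had -0.17 (SE 0.108). With the endothelial score as a covariate 2 in place of 4 were lower at that p, and the log2 fold change of Scd1 was then -0.45. With the choroid plexus score 5 were lower, and Scd1 had -0.64 (edgeR adjusted p = 0.029).

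**Figure D4:**
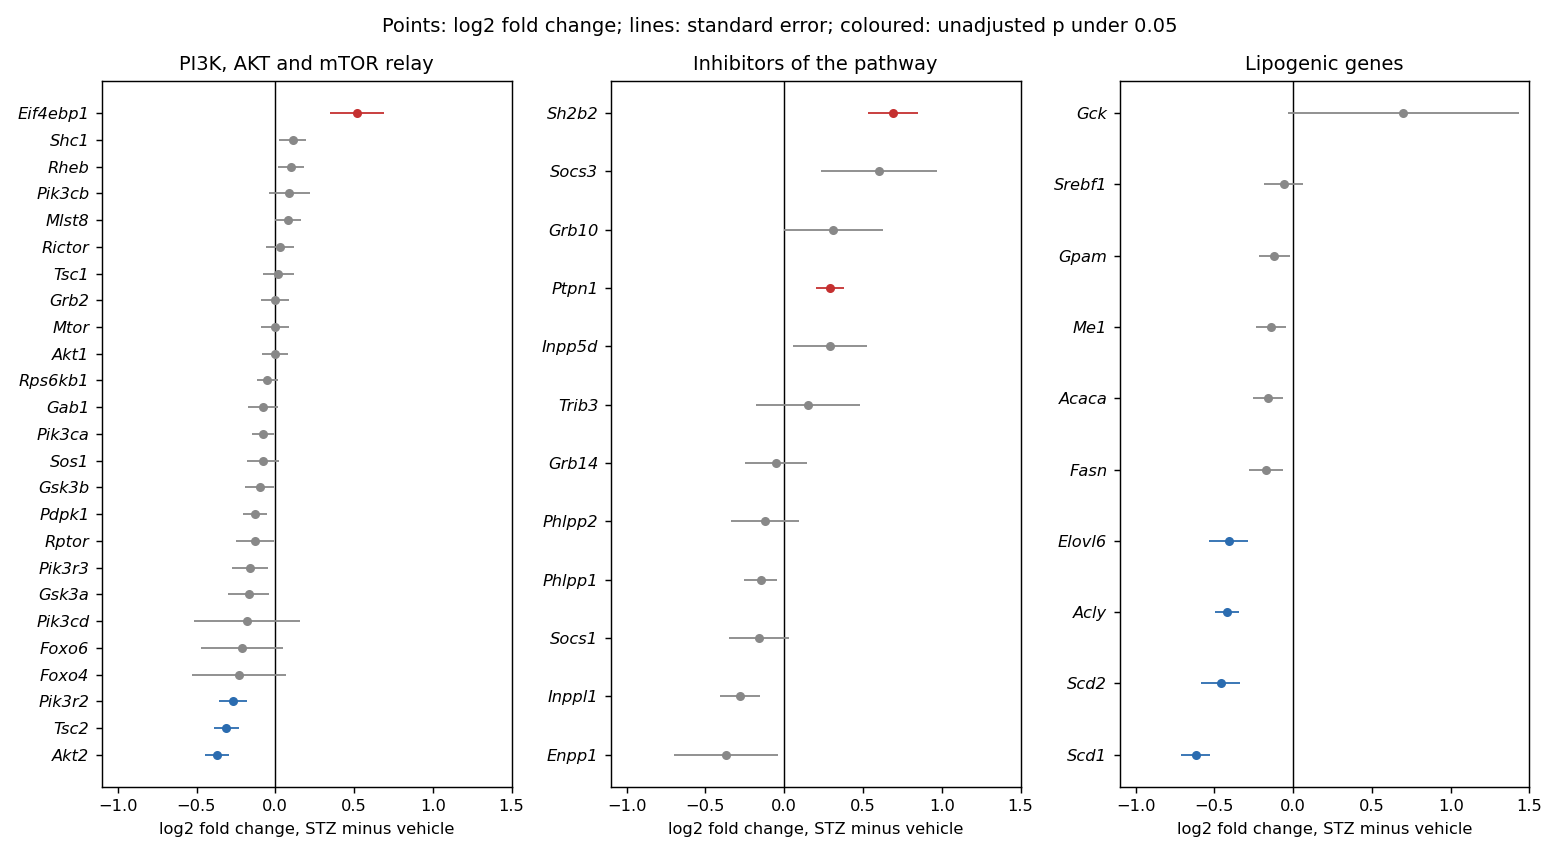
Log2 fold change of STZ over vehicle with its standard error for genes of the PI3K, AKT and mTOR relay, genes taken as inhibitors of insulin signalling and 10 lipogenic genes, coloured where the unadjusted p was under 0.05. Akt2, Tsc2 and Pik3r2 lie below 0 and Eif4ebp1 above it on the left, Sh2b2 and Ptpn1 lie above 0 in the middle, and Scd1, Scd2, Acly and Elovl6 lie below 0 on the right.

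The genes with the most similar patterns were sought among 12327 genes with a mean of at least 5 CPM, by Pearson correlation of log2 CPM over the 6 samples, which share the same libraries. For Igf2 they were Pgrmc1, Tubb4b-ps1 and Ppp1r3b (0.9995, 0.9971 and 0.9958), and the choroid plexus markers Folr1 and Ttr had 0.994 and 0.968. For Igf1 they were Akt2-ps, Cmtr2 and Rngtt (0.9945, 0.9901 and 0.9861), each with a far smaller difference between the groups. Mrc1 had 0.71 with Igf1 and the microglial gene Csf1r had 0.151. For Irs2 they were Hif3a, Cfap100 and Sulf2 (0.9937, 0.99 and 0.9858), and Hif3a is among the 12 glucocorticoid-induced genes. With 6 samples and this many genes, correlations near 1 are found for many genes.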

How the data were processed

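RNA from tdTomato-positive cells was sequenced in 3 vehicle and 3 STZ samples, each a pool of 3 mice. Per the submitters' processing notes, the authors used Trimmomatic 0.38, HISAT2 2.1.0 on mm10 and StringTie 2.1.3b, and deposited whole-number read counts per gene, FPKM (length and depth scaled) and TPM. The labels name a SMART-Seq mRNA kit. The annotation release and strand setting are not given in the sources used here, and overlapping genes can share reads. Genes with a 0 in any sample were dropped, and the counts of the other 22337 went into edgeR 4.0.16 (TMM, quasi-likelihood, two-sided, Benjamini-Hochberg adjustment) in R 4.3.3, a procedure checked on simulated data. The step of the study that removed outlier genes was not repeated. Alternatives were DESeq2 1.42.0, its size factors in edgeR, no filter, the replicate number as a block, limma 3.58.1 on log2(TPM + 1), leaving out each sample, and, added after seeing the data, endothelial and choroid plexus scores as covariates. Members and gene lists were chosen with earlier results of these data known. Named genes were the members, in each list the genes with the smallest p and the most abundant, and the 3 most similar genes for Igf1, Igf2 and Irs2. Other FoxO, relay and inhibitor genes named with values, and genes with a promoter match, were added after their values were seen. Coordinates came from RefSeq on GRCm38.p6, matched by NCBI gene number. P-values measure the spread between pooled samples. Values of some single genes of the relay and inhibitor lists are not reported here.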

Additional observations from a re-analysis of the deposited data

How the results depend on the processing

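No member passed it with edgeR under any alternative run. EdgeR called 5 genes in all, 234 were called by DESeq2, 14 with the choroid plexus score and 0 with limma on log2(TPM + 1), the endothelial score or the replicate block, and 0 to 1 without single samples. Members called went from 0 to 1 (Igf1) with DESeq2. With the endothelial score, FoxO-induced genes at an unadjusted p under 0.05 went from 6 higher and 1 lower to 2 and 0. FoxO-repressed genes higher went from 2 to 0, relay genes lower from 3 to 1 and lipogenic genes lower from 4 to 2. With the choroid plexus score these counts were 8 and 1, 3, 3 and 5 in the same order. The cause was not tested.

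Without single samples, members higher at that p were 2 to 4 and lower 1 to 2, FoxO-induced genes higher 2 to 7 and lower 0 to 3, FoxO-repressed genes higher 2 to 3, relay genes lower 2 to 5 and lipogenic genes lower 4 to 5. The 2 members lower came without vehicle replicate 1, the FoxO-induced counts of 2 higher and 0 lower without STZ replicate 2, that of 3 lower without STZ replicate 3, and the relay count of 5 without STZ replicate 1. Signs turned as follows. With the endothelial score the log2 fold change was -0.02 for Ccnd2, -0.19 for Irs1, -0.02 for Irs2 and 0.07 for Pik3r1, and -0.18 for Bcl2l11 and Bbc3, -0.08 for Ccnd1, -0.13 for Grb2 and 0.10 for Fbxo32, and with the choroid plexus score it was 0.05 for Ins2. Without single samples it ran from -0.16 to 0.08 for Igf2r, -0.07 to 0.07 for Irs1, -0.08 to 0.00 for Pik3r1, -0.57 to 0.10 for Ins2, -0.18 to 0.02 for Srebf1 and -0.02 to 0.37 for Ccnd2. Akt1, Mtor, Rictor, Grb2, Cat and Fbxo32 also took both signs without single samples, within -0.17 to 0.10.

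Same-numbered vehicle and STZ samples had a mean correlation of -0.149, against 0.0743 for other numbers. These correlations used departures from each group's average, which cancel within a group. The same-number value therefore largely sets the other, and they cannot show whether samples were paired. The sample descriptions give vehicle and STZ samples no number in common, and no pairing is stated. With the replicate block the log2 fold changes were -1.17 for Igf1, 0.31 for Foxo1, 0.26 for Insr and 0.42 for Foxo3.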
